A study of Homo sapiens with 8 samples.

Results

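The 9 genes described here encode enzymes that pass on the amino nitrogen of glutamine, glutamate, aspartate and arginine. They are GLUL, GLUD1, GOT1, GOT2, GPT2, ASS1, ASL, OAT and ARG2, and they were selected by symbol through their Ensembl identifiers, out of 27776 genes listed in at least 1 of the 2 deposited RNA-seq tables. RNA was sequenced from 769-P and CAKI-1 cells, established human cell lines labelled as clear cell renal cell carcinoma, after 16 hours without or with branched-chain amino acids (BCAA), with 2 libraries per condition and 8 in all. Valine was given at 0.17 mM, and leucine and isoleucine at 0.38 mM each. The labels name no transgene or deletion in either line. 769-P was kept in RPMI medium and CAKI-1 in MEM, and the methods describe a BCAA-depleted medium made from RPMI powder free of amino acids with dialyzed serum, without saying which amino acids were put back. All 9 genes had values and were tested in 769-P. In CAKI-1 8 were tested, and GLUL was not analysed here.

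BCAA catabolism begins with a transamination, in which the amino group of leucine, isoleucine or valine moves to 2-oxoglutarate and makes glutamate. Glutamate then hands that nitrogen to oxaloacetate or pyruvate through the aspartate and alanine aminotransferases, loses it as ammonium through glutamate dehydrogenase, or takes up another ammonium to become glutamine. Aspartate and citrulline are joined on the way to arginine, a synthesis that the renal proximal tubule is known for, and arginase and ornithine aminotransferase lead from arginine back to glutamate.

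In 769-P cells the 2 aspartate aminotransferases moved in opposite directions: with BCAA, transcripts of the cytosolic GOT1 fell and those of the mitochondrial GOT2 rose. GPT2, the mitochondrial alanine aminotransferase, fell by more than any other of the 9, and ASS1 and the low-abundance ARG2 also fell, while OAT and, by a small amount, GLUD1 rose. Thus 3 of 9 were higher with BCAA, against 20.3% of all 22391 genes tested in this line, and 4 of 9 were lower, against 18.2% of all genes. In CAKI-1 cells GOT2, GPT2 and OAT rose, 3 of 8 against 10.8% of the 21347 genes tested, and 0 of 8 passed the test for a fall, against 9.05%. The tests were limma on log2(value + 1) within each line with Benjamini-Hochberg adjustment over all genes at 0.05. After adjustment edgeR and DESeq2 also gave 0 of 8 lower in CAKI-1. At an unadjusted p under 0.05 in limma, 1 of 8, ASL, was lower there. In either direction 4 of 8 members had such a p, beside 6714 of the 21347 genes tested. With a library of CAKI-1 left out, the rise of GOT2 ran from 0.23 to 0.29 on the log2 scale. That of GPT2 ran from 0.24 to 0.35 and that of OAT from 0.27 to 0.44. None of the 3 kept its call in these fits, which leave 1 library in a condition, but calls were then lost over the whole line. In 769-P the calls of GLUD1 and ARG2 were lost with any 1 library left out. The BCAA effect differed between the lines for 4 of 8 genes (GLUD1, GOT1, GOT2 and GPT2), against 21.1% of the 19406 genes tested for that difference. For GLUD1 this was lost in most fits that left out a library. The median log2 fold change of the members was -0.19 in 769-P and 0.05 in CAKI-1, beside -0.02 and -0.01 over all genes tested.

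The values are normalized reads, in which the reads of a gene are scaled by the size factor of the library but not by gene length, and 30979773 to 64256834 reads per library lay on listed genes. Depth went with the condition in 769-P, at 55829324 reads or more in both libraries with BCAA and at most 40130258 in both without. With the reads thinned to 30979773 in every library, GOT1, GPT2, ASS1, GOT2 and OAT kept their calls in 769-P. GLUD1 and ARG2 did not, at log2 fold changes of 0.11 and -0.93 (limma adjusted p = 0.0940 and 0.0609), beside 0.15 and -0.98 with all reads. The labels do not say whether the libraries of a condition came from separate cultures, so the p-values measure the spread between these libraries, which may be technical. With 2 libraries against 2, an exact permutation test could not go below p = 0.333. Markers of renal carcinoma cells had at least 100 reads in every library for 6 of 10 genes in 769-P and 7 of 10 in CAKI-1, while CA9 was not analysed here in either line and LRP2, a proximal tubule marker, had at most 9 reads in any 769-P library. Of the markers of leukocytes, endothelium, hepatocytes, smooth muscle and fibroblasts, 6 of the 7 listed in 769-P and 5 of the 6 listed in CAKI-1 had at most 20 reads in every library, the exception being COL1A1, a collagen gene, with 170 to 235 reads in 769-P and 90401 to 149247 in CAKI-1. Its part in the results was not tested. In such bulk RNA, fewer cells of a kind and less RNA per cell cannot be told apart.

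**Figure D1:**
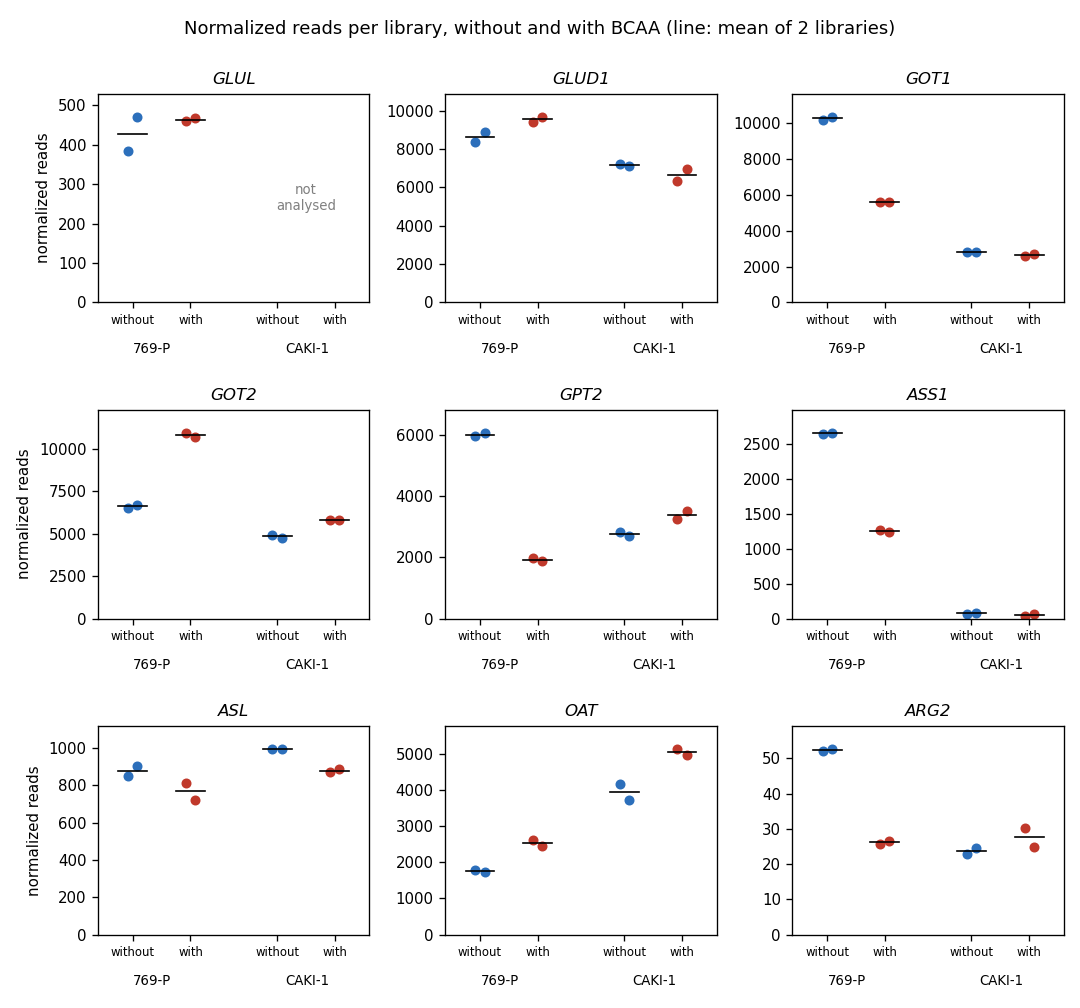
Normalized reads of the 9 genes in each library, with a panel per gene; points are libraries without BCAA in blue and with BCAA in red, the line is the mean of 2 libraries, and each axis starts at 0. In 769-P, GOT1, GPT2, ASS1 and ARG2 sit lower and GOT2 and OAT higher with BCAA; GLUL was not analysed in CAKI-1.

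GOT1 and GOT2 catalyse the same reaction, between glutamate and oxaloacetate on the one side and 2-oxoglutarate and aspartate on the other, in the cytosol and in mitochondria, and together they carry reducing equivalents in the malate-aspartate shuttle. GOT1 (ENSG00000120053, chromosome 10, 99396870 to 99431569 on the minus strand of GRCh38, 8 exon blocks) had 5612 and 5595 normalized reads with BCAA in 769-P and 10182 and 10351 without. The libraries without BCAA were clearly above those with it. The log2 fold change was -0.87 (SE 0.04, n = 2 per condition, limma adjusted p = 1.55e-08), that is 1.83-fold lower with BCAA. In CAKI-1 GOT1 stood at 2582 and 2683 with BCAA and at 2826 in both libraries without, and the log2 fold change of -0.10 (SE 0.06) did not pass the test (limma adjusted p = 0.297). The difference of the effect between the lines was -0.77 on the log2 scale (95% interval -0.92 to -0.62, limma adjusted p = 4.3e-06).

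GOT2 (ENSG00000125166, chromosome 16, 58707131 to 58734357 on the minus strand, 9 exon blocks) moved the other way. It had 10935 and 10719 normalized reads with BCAA and 6545 and 6664 without in 769-P, a log2 fold change of 0.71 (SE 0.04, limma adjusted p = 8.37e-08). In CAKI-1 it had 5811 and 5786 with BCAA and 4943 and 4739 without, a log2 fold change of 0.26 (SE 0.06, limma adjusted p = 0.00756, and up to 0.208 with a library left out). The libraries of the 2 conditions did not overlap in either line, and the rise was larger in 769-P by 0.45 on the log2 scale (95% interval 0.31 to 0.60, limma adjusted p = 0.000278).

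Within each library the pair can be compared per kilobase of exon. The GOT2 level was 1.74 and 1.71 times that of GOT1 with BCAA in 769-P and 0.575 and 0.576 times without, so that GOT1 was the more abundant transcript without BCAA and GOT2 with it. In CAKI-1 the ratio was 2.01 and 1.93 with BCAA and 1.56 and 1.50 without, with GOT2 above GOT1 in every library. GOT1 shares 651 exon bases with a long non-coding RNA on the other strand that had 17 to 51 reads in 769-P, and the strand setting of the counting is not given in the sources used here. The longest annotated transcripts of GOT1 and GOT2 were 59.1% identical over 1142 aligned bases.

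**Figure D2:**
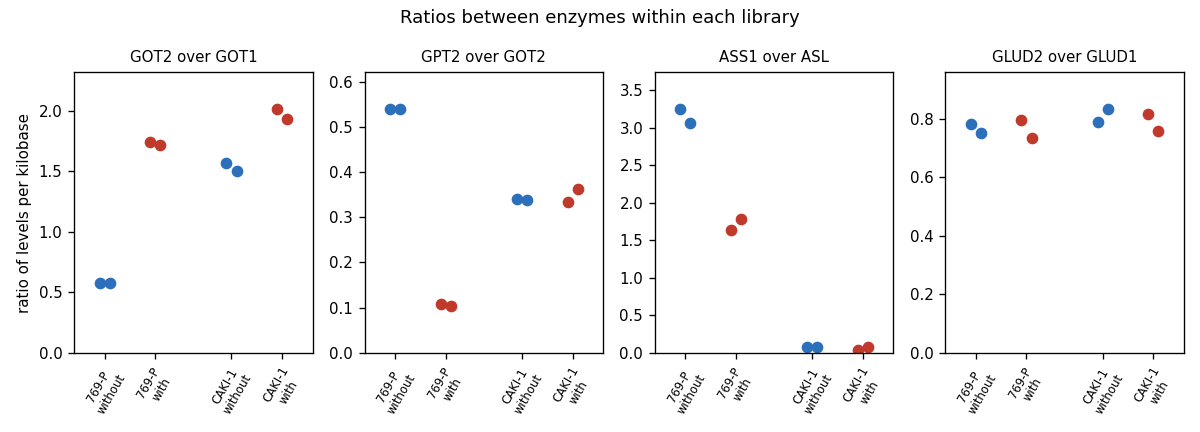
Ratios of levels per kilobase of exon between pairs of enzymes, 1 point per library, each axis starting at 0. GOT2 over GOT1 was near 0.575 in the 769-P libraries without BCAA and at least 1.50 in all other libraries, GPT2 over GOT2 and ASS1 over ASL were lower with BCAA in 769-P, and GLUD2 over GLUD1 stayed between 0.736 and 0.834 in all 8 libraries.

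Stretches of promoter are shown for 4 of the genes that moved in 769-P, namely GOT1, ASS1 and ARG2, whose windows held a searched motif, and GOT2, whose window held none. RefSeq windows from 250 bases before to 50 bases after the start (GRCh38.p14) were at hand for 8 of the 9 genes, in 10 windows, and not for GPT2. The 3 motifs, chosen after the expression values were seen, were searched on both strands. They were the ATF4 response element TGATGCAA, the E-box CACGTG and the cAMP response element TGACGTCA, which do not contain each other. Capitals mark the motif, each sequence runs 5′ to 3′ on the strand of its gene, and bases inside annotated exons are left out except around the GOT1 motif, which lies in the first exon of a longer annotated transcript. The lines below give GOT1 at chr10:99430804-99430833 (minus strand), GOT2 at chr16:58734358-58734566 (minus strand), ASS1 at chr9:130444711-130444928 (plus strand, upstream of the second of its 2 starts) and ARG2 at chr14:67619670-67619797 (plus strand).
GOT1: aattgcattggTTGCATCAttctcggcagc
GOT2: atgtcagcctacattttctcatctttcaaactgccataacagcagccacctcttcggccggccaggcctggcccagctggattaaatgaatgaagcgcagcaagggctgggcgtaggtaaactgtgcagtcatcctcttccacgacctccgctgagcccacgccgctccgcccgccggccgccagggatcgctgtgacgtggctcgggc
ASS1: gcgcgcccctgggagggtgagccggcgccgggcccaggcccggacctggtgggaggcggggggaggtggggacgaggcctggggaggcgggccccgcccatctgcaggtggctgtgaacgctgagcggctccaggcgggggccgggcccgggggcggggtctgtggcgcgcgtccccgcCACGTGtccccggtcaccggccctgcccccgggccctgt
ARG2: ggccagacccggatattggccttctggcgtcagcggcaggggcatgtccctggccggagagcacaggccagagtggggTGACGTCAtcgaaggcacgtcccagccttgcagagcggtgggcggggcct

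In the GOT1 window the letters TTGCATCA, the reverse complement of the ATF4 element, began 198 bases before the start, and 0.866% of all 35116 windows hold this motif on either strand. The ASS1 window held CACGTG 71 bases before the start, as did 7.26% of all windows at some position. The ARG2 window held TGACGTCA at 172 and again at 64 bases before the start, and 1.85% of all windows hold it. These matches describe letters in the windows and no binding was measured.

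GPT2 makes alanine and 2-oxoglutarate from pyruvate and glutamate in mitochondria. The gene (ENSG00000166123, chromosome 16, 46884378 to 46931297 on the plus strand, 13 exon blocks) had 1985 and 1868 normalized reads with BCAA and 5958 and 6067 without in 769-P. Every library with BCAA lay far below both libraries without. The log2 fold change was -1.64 (SE 0.05, limma adjusted p = 6.15e-10), a 3.12-fold fall, and GPT2 ranked 433 by size among the 4069 genes that were lower with BCAA. In CAKI-1 it had 3269 and 3533 with BCAA and 2832 and 2705 without, a rise of 0.30 on the log2 scale (SE 0.07, limma adjusted p = 0.00839). The CAKI-1 call was lost without any 1 library (limma adjusted p up to 0.230), with quantile normalization and with limma without trend. The difference between the lines, of -1.94 (95% interval -2.12 to -1.76, limma adjusted p = 6.54e-09), was the largest among the 8 genes. Per kilobase, GPT2 fell in 769-P from 0.540 of the GOT2 level in both libraries without BCAA to 0.108 and 0.103 with it, while in CAKI-1 it stood between 0.333 and 0.362 of GOT2 in all 4 libraries.

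GLUD1, mitochondrial glutamate dehydrogenase, releases ammonium from glutamate and is activated by leucine. The gene (ENSG00000148672, chromosome 10, 87050486 to 87094866 on the minus strand, 14 exon blocks) had 9431 and 9672 normalized reads with BCAA and 8367 and 8895 without in 769-P, a log2 fold change of 0.15 (SE 0.05, limma adjusted p = 0.0248). It ranked 4478 by size among the 4536 genes that were higher with BCAA, and the call did not hold without any 1 of the 4 libraries (limma adjusted p up to 0.251). In CAKI-1 it had 6344 and 6973 with BCAA and 7194 and 7106 without, a log2 fold change of -0.10 (SE 0.06, limma adjusted p = 0.283). The difference between the lines, 0.25 on the log2 scale (95% interval 0.08 to 0.42, limma adjusted p = 0.0337), was lost in 6 of the 8 fits that left out a library.

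GLUD2 is an intronless copy on chromosome X whose annotated transcript was 96.8% identical to GLUD1 over 2488 aligned bases, and how far the counting split reads between them was not tested. GLUD2 held 0.521 to 0.591 reads per GLUD1 read in all 8 libraries. Its log2 fold changes ran beside those of GLUD1, with 0.15 in 769-P (limma adjusted p = 0.0348) and -0.15 in CAKI-1 (limma adjusted p = 0.110). The 3 listed GLUD1 pseudogenes added 0.826% of the GLUD1 reads in 769-P and 0.747% in CAKI-1. GLUD1 also shares 464 exon bases with SHLD2 on the other strand, which had 2311 to 4150 reads in 769-P with a log2 fold change of 0.05 (limma adjusted p = 0.519).

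GLUL, glutamine synthetase, joins ammonium to glutamate and is the only human enzyme that makes glutamine. In 769-P the gene (ENSG00000135821, chromosome 1, 182381704 to 182392206 on the minus strand) had 459 and 469 normalized reads with BCAA and 385 and 471 without. The upper library without BCAA lay above both libraries with it, so the conditions overlapped. The log2 fold change was 0.12 (SE 0.12, 95% interval -0.13 to 0.38, limma adjusted p = 0.450) and did not pass the test. With the spread of GLUL between these libraries, an effect of this size cannot be told from 0.

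**Figure D3:**
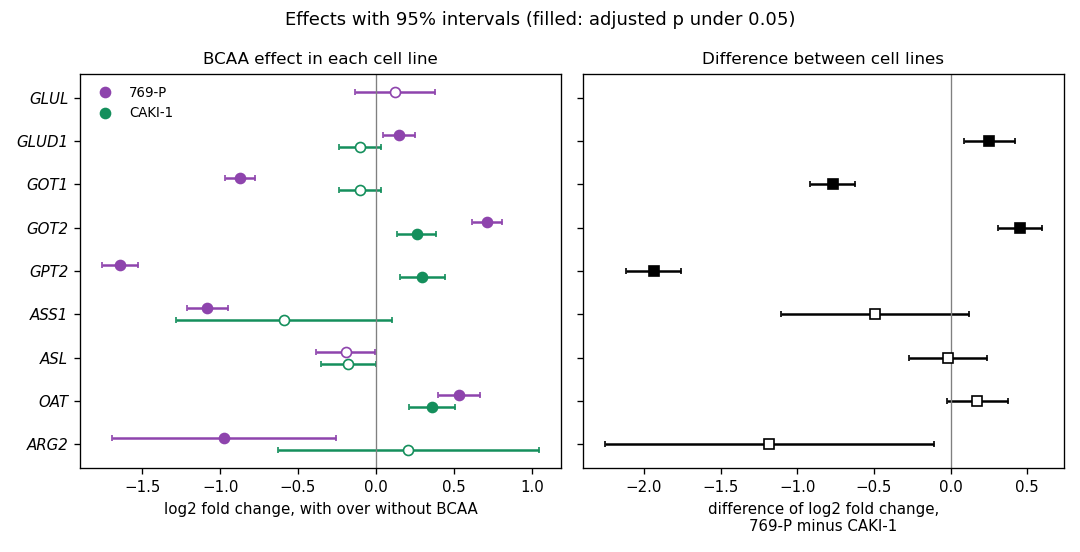
Log2 fold changes with over without BCAA in 769-P (purple) and CAKI-1 (green) on the left, and the difference of the effect between the lines on the right, with 95% intervals from limma; filled symbols passed an adjusted p of 0.05. GPT2 lies at -1.64 in 769-P and at 0.30 in CAKI-1, GOT2 and OAT lie above 0 in both lines, and the intervals of ASS1 in CAKI-1 and of ARG2 in both lines are the widest.

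ASS1, argininosuccinate synthase, condenses citrulline with aspartate, the rate-limiting step of arginine synthesis. In 769-P the gene (ENSG00000130707, chromosome 9, 130444929 to 130501274 on the plus strand, 18 exon blocks) had 1268 and 1230 normalized reads with BCAA and 2641 and 2651 without. The replicates lay close together and the conditions far apart. The log2 fold change was -1.08 (SE 0.06, limma adjusted p = 3.87e-08), that is 2.12-fold lower with BCAA. In CAKI-1 ASS1 was scarce, with 36.0 and 64.9 normalized reads with BCAA, from 37 and 78 reads, and 68.4 and 78.5 without, from 72 and 61 reads. The log2 fold change of -0.59 (SE 0.32) did not pass the test (limma adjusted p = 0.234), and 1 library set much of it, since the value ran from -1.01 to -0.17 when each library was left out in turn. The difference between the lines was -0.49 (95% interval -1.11 to 0.12, limma adjusted p = 0.255), so that neither an equal nor a smaller effect in CAKI-1 could be told from these libraries. It was -0.91 (limma adjusted p = 0.0022) without the first CAKI-1 library with BCAA. Processed pseudogenes of ASS1, counted apart from it, had reads equal to 5.28% of the ASS1 reads in 769-P and 14.5% in CAKI-1.

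ASL splits argininosuccinate into arginine and fumarate, the step after ASS1. In 769-P the gene (ENSG00000126522, chromosome 7, 66075798 to 66093558 on the plus strand) had 814 and 723 normalized reads with BCAA and 851 and 905 without. In CAKI-1 it had 872 and 887 with BCAA and 994 and 995 without. The libraries with BCAA lay below those without in both lines, but by little. The log2 fold changes of -0.19 (95% interval -0.38 to -0.0035, limma adjusted p = 0.104) and -0.18 (95% interval -0.35 to -0.0027, limma adjusted p = 0.152) did not pass the test, and the difference between the lines was -0.02 (95% interval -0.27 to 0.24). The level of ASS1 per kilobase was 1.63 and 1.78 times that of ASL with BCAA in 769-P and 3.25 and 3.07 times without, whereas in CAKI-1 it was between 0.0433 and 0.0827 of ASL in all 4 libraries. ASL exons overlap those of AC068533.4, an annotated protein-coding gene on the same strand. How the counting treated the shared bases was not tested.

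ARG2, the mitochondrial arginase, splits arginine into ornithine and urea. It was the least abundant of the genes (ENSG00000081181, chromosome 14, 67619798 to 67651720 on the plus strand), with 19 to 43 reads per library. In 769-P it had 25.8 and 26.5 normalized reads with BCAA and 52.2 and 52.6 without, a log2 fold change of -0.98 (SE 0.33, limma adjusted p = 0.0344). The call was lost without any 1 of the 4 libraries (limma adjusted p up to 0.148), with thinned reads and with DESeq2 (adjusted p = 0.103). In CAKI-1 it had 30.2 and 25.0 with BCAA and 22.8 and 24.5 without (log2 fold change 0.21, SE 0.38, limma adjusted p = 0.763), and the difference between the lines, -1.18 (95% interval -2.26 to -0.11), did not pass the test (limma adjusted p = 0.116). ARG2 shares 904 exon bases with VTI1B on the other strand, which had 1158 to 1921 reads over all libraries and log2 fold changes of 0.03 in 769-P (limma adjusted p = 0.793) and -0.04 in CAKI-1 (limma adjusted p = 0.757). Without strand, reads from these bases cannot be assigned to ARG2 alone.

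OAT, ornithine aminotransferase, turns ornithine and 2-oxoglutarate into glutamate semialdehyde and glutamate in mitochondria. The gene (ENSG00000065154, chromosome 10, 124397303 to 124418976 on the minus strand, 14 exon blocks) had 2623 and 2446 normalized reads with BCAA and 1785 and 1719 without in 769-P. In CAKI-1 it had 5125 and 4963 with BCAA and 4170 and 3709 without. It rose in both lines without overlap of the libraries, by 0.53 on the log2 scale in 769-P (SE 0.06, limma adjusted p = 2.15e-05) and by 0.36 in CAKI-1 (SE 0.07, limma adjusted p = 0.00326, and up to 0.194 with a library left out). The difference of 0.17 did not pass the test (95% interval -0.03 to 0.37, limma adjusted p = 0.217).

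The order of the transcripts was compared by length-scaled level (RPKM, counted on the reads of listed genes), with no test, since the tables of the 2 lines were normalized separately. In 769-P with BCAA the order ran from GOT2 at 214 ± 3.43 (SD, n = 2) over GLUD1 at 202, GOT1 at 124, OAT at 55.7, ASS1 at 30.5, GPT2 at 22.6, ASL at 17.9 and GLUL at 3.82 to ARG2 at 0.805. Without BCAA it ran from GOT1 at 226 ± 0.586 over GLUD1 at 182, GOT2 at 130, GPT2 at 70.1, ASS1 at 64.2, OAT at 38.3, ASL at 20.3 and GLUL at 3.51 to ARG2 at 1.60. All neighbours in these orders had libraries that did not overlap. GOT1 thus moved from the first to the third place and GPT2 from the fourth to the sixth with BCAA.

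In CAKI-1 with BCAA the levels were 163 for GLUD1, 133 for GOT2, 128 for OAT, 67.4 for GOT1, 46.1 for GPT2, 23.7 for ASL, 1.42 for ASS1 and 0.984 for ARG2, and the libraries of GOT2 and OAT overlapped, as did those of ASS1 and ARG2. Without BCAA they were 166 for GLUD1, 105 for GOT2, 94.9 for OAT, 68.5 for GOT1, 35.6 for GPT2, 25.4 for ASL, 1.97 for ASS1 and 0.798 for ARG2, in the same order and with no overlap between neighbours. The order of the genes in CAKI-1 was therefore the same in both conditions by their means, though by the length of the longest transcript OAT stood first with BCAA, at 164, ahead of GOT2 at 156 and GLUD1 at 145. ASS1 stood at 64.2 without BCAA in 769-P and at 1.97 in CAKI-1, side by side and without a test.

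**Figure D4:**
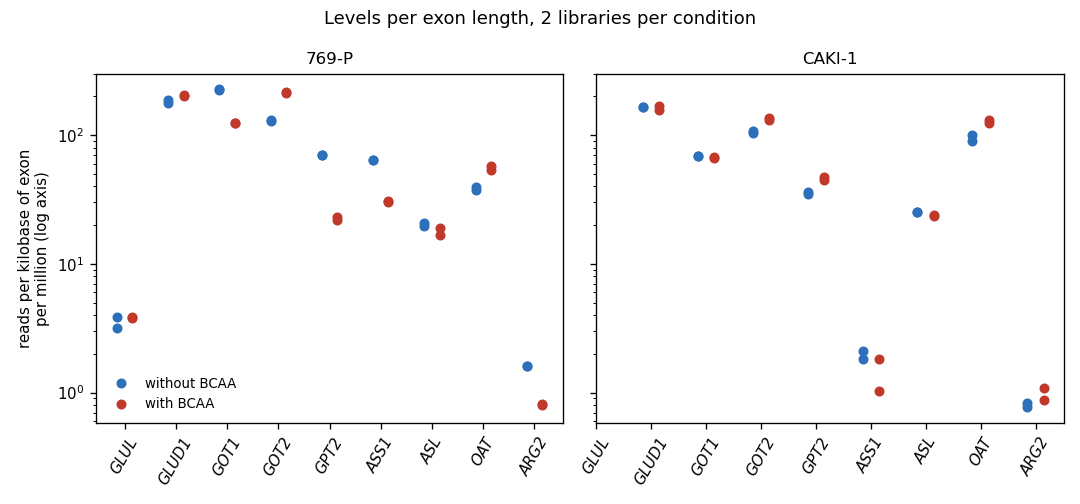
Length-scaled levels (TPM) on a log axis, 1 point per library, without BCAA in blue and with BCAA in red. The left panel is 769-P and the right panel CAKI-1. GOT1, GPT2 and ASS1 drop with BCAA in 769-P, and the mean of ASS1 lies at 1.42 and 1.97 in CAKI-1 against 30.5 and 64.2 in 769-P.

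The other genes of these pathways were taken from 4 lists of 59 genes in all, of which 48 were tested in each line. In 769-P 15 of 48 rose with BCAA, against 20.3% of all genes tested, and 18 fell, against 18.2%. In CAKI-1 15 of 48 rose, against 10.8%, and 3 fell, against 9.05%. The effect differed between the lines for 24 of 45 genes, against 21.1% of all genes tested. Of these, 7 had a higher and 17 a lower log2 fold change with BCAA in 769-P than in CAKI-1. The median log2 fold change was 0.01 in 769-P and 0.14 in CAKI-1. No call in CAKI-1 held with a library of that line left out, where calls were lost over the whole line and not in these lists alone. Among the genes named here, GFPT2, SLC7A2, KYAT1, KYAT3, ALDH18A1, CAD, PFAS and SLC25A12 lost their 769-P call with libraries left out. Each did so in at least 3 of the 4 such fits.

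Among 12 enzymes that use glutamine as a nitrogen donor, 6 rose and 4 fell in 769-P (20.3% and 18.2% of all genes). In CAKI-1 6 of 11 rose and 1 fell (10.8% and 9.05% of all genes). The purine enzymes PPAT and PFAS, which take glutamine in the early steps of the ring, rose in both lines, PPAT by 0.70 and 0.43 and PFAS by 0.26 and 0.47. CTPS1, which makes CTP, rose by 0.44 and 0.55, and GMPS, which makes GMP, rose by 0.59 in 769-P and had a log2 fold change of 0.16 in CAKI-1 (limma adjusted p = 0.0649). ASNS, asparagine synthetase, which takes both glutamine and aspartate, fell in both lines, from 16438 and 15854 normalized reads to 3323 and 3432 in 769-P and from 4715 and 4741 to 3553 and 3635 in CAKI-1, with log2 fold changes of -2.26 and -0.40 (limma adjusted p = 2.28e-11 and 0.000672). GFPT1, which feeds the hexosamine pathway, and CAD, which starts pyrimidine synthesis, fell in 769-P and were called higher in CAKI-1. GFPT1 fell by 0.92 in 769-P and rose by 0.22 in CAKI-1, and CAD fell by 0.32 and rose by 0.25 (limma adjusted p = 0.0196 and 0.0409 in CAKI-1). With a library left out the CAKI-1 values ran from 0.18 to 0.25 for GFPT1 and from 0.16 to 0.34 for CAD, with no call, and CAD also lost its call there in 8 of 16 other settings and GFPT1 in 3. GFPT2, scarce in 769-P, had a log2 fold change of -0.93 there (limma adjusted p = 0.0426) and 0.02 in CAKI-1.

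The list of other aminotransferases also counts PHYKPL, a phospho-lyase. Of the 11 genes of this list tested in 769-P, 3 rose and 5 fell (20.3% and 18.2% of all genes). Of 10 tested in CAKI-1, 1 rose and 2 fell (10.8% and 9.05% of all genes). BCAT1, the cytosolic aminotransferase of the BCAA themselves, fell from 3155 and 3362 normalized reads without BCAA to 544 and 546 with it in 769-P, a log2 fold change of -2.58 (SE 0.07, limma adjusted p = 1.46e-10). In CAKI-1 BCAT1 was abundant, with 17323 and 16493 with BCAA and 15182 and 16147 without, and its log2 fold change of 0.11 did not pass the test (limma adjusted p = 0.217). PSAT1, the aminotransferase of serine synthesis, fell by 1.92 on the log2 scale in 769-P (limma adjusted p = 5.69e-11) and stood at 0.06 in CAKI-1 (limma adjusted p = 0.478). PHYKPL, a phospho-lyase of hydroxylysine breakdown, fell in both lines, by 1.12 and by 0.48. KYAT1, a kynurenine aminotransferase, rose in both, by 0.45 and 0.93, while its relative KYAT3 rose by 0.25 in 769-P and fell by 0.35 in CAKI-1.

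The arginine, ornithine and proline list had 11 genes tested in each line. In 769-P 2 were higher and 3 lower (20.3% and 18.2% of all genes). In CAKI-1 1 was higher and 0 lower (10.8% and 9.05% of all genes). ODC1, ornithine decarboxylase, the entry to polyamine synthesis, had 15250 and 14694 normalized reads with BCAA and 34475 and 33448 without in 769-P, a log2 fold change of -1.18 (limma adjusted p = 7.77e-10). GAMT, which makes creatine, rose by 1.21 in 769-P (limma adjusted p = 1.43e-08). Neither passed the test in CAKI-1, at 0.01 for ODC1 and -0.04 for GAMT. ALDH18A1, which starts proline and ornithine synthesis from glutamate, rose in both lines, by 0.27 and 0.18 (limma adjusted p = 0.00102 and 0.0429). Its CAKI-1 call was lost in 7 of 16 other settings.

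Of the carriers for glutamine, glutamate, aspartate, arginine and ornithine, 4 of 14 rose and 6 fell in 769-P (20.3% and 18.2% of all genes). In CAKI-1 7 of 16 rose and 0 fell (10.8% and 9.05% of all genes). The mitochondrial aspartate-glutamate carriers SLC25A12 and SLC25A13, which work with GOT1 and GOT2 in the malate-aspartate shuttle, rose in both lines, SLC25A12 by 0.35 and 0.26 and SLC25A13 by 0.52 and 0.41. The CAKI-1 call of SLC25A12 (limma adjusted p = 0.0481) was lost in 9 of 16 other settings as well as in all 4 fits with a library left out. The cystine-glutamate exchanger SLC7A11 fell by 2.17 in 769-P (limma adjusted p = 5.68e-11), with -0.09 in CAKI-1, and the arginine carrier SLC7A1 fell by 1.08 in 769-P, with 0.16 in CAKI-1 (limma adjusted p = 0.119). SLC1A5, a glutamine carrier of the cell membrane, fell by 1.20 in 769-P and rose by 0.21 in CAKI-1. SLC7A2, a carrier of cationic amino acids, rose in both lines, by 1.16 from low values in 769-P and by 0.31 in CAKI-1. The mitochondrial ornithine carrier SLC25A15 rose in CAKI-1 by 0.44 (limma adjusted p = 0.00405), and the glutamate carrier SLC1A3 rose there by 1.25 (limma adjusted p = 0.0174), with at most 72.0 normalized reads.

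**Figure D5:**
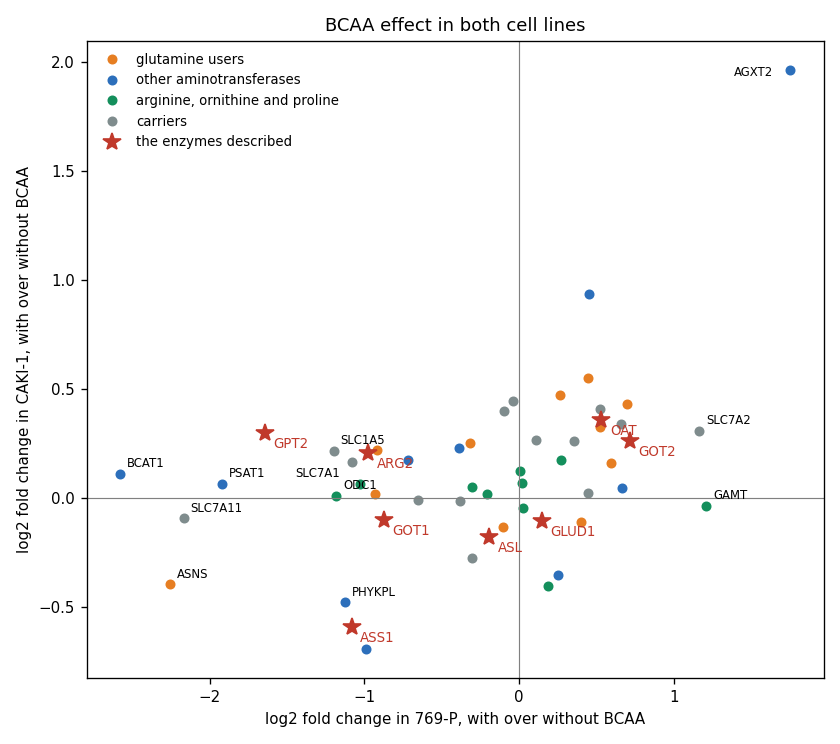
Log2 fold change with over without BCAA in 769-P on the horizontal axis against that in CAKI-1 on the vertical axis, for the 8 genes tested in both lines (red stars) and the genes of the 4 lists tested in both (dots). BCAT1, ASNS, SLC7A11, PSAT1 and GPT2 lie furthest to the left, below -1.6 in 769-P and between -0.40 and 0.30 in CAKI-1, and the point at the upper right is AGXT2, which had at most 12.2 normalized reads and passed the test in neither line.

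Genes with the pattern most like GOT1, GPT2 and ASS1 were taken by Pearson's r over the 8 libraries, after subtracting the mean of each line, among protein-coding genes with a mean of at least 100 normalized reads in both tables. These libraries are 4 pairs of 2, so r mostly reflects the ratio of the effects in the 2 lines. The genes nearest to GOT1 were PCK2, mitochondrial phosphoenolpyruvate carboxykinase, GARS, glycyl-tRNA synthetase, and NUPR1, a stress-induced nuclear protein (r = 0.9995, 0.9994 and 0.9989). Their log2 fold changes were -3.23, -1.08 and -3.09 in 769-P and -0.47, -0.13 and -0.38 in CAKI-1. Those nearest to GPT2, which fell in 769-P and rose in CAKI-1, were EDN2, TNFAIP1 and PVR, with log2 fold changes of -3.29, -0.72 and -1.16 in 769-P and 0.62, 0.17 and 0.22 in CAKI-1 (r = 0.9991, 0.9975 and 0.9970). Those nearest to ASS1 were SLCO4A1, H1FX and MGLL, with -1.53, -0.63 and -0.71 in 769-P and -0.76, -0.37 and -0.36 in CAKI-1 (r = 0.9979, 0.9976 and 0.9958). ASS1 itself lay below that mean of 100 in CAKI-1. Its effect there, from 37 to 78 reads per library, ran from -1.01 to -0.17 with a library left out. In CAKI-1 neither GOT1 nor ASS1 passed the test. Nor did GARS, TNFAIP1, H1FX and MGLL (limma adjusted p = 0.119, 0.0602, 0.0880 and 0.0502).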

How the data were processed

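RNA-seq of 769-P and CAKI-1 cells was analysed from 8 libraries, grouped by the cell line and treatment in their labels. In each of 2 deposited tables, 1 per line, the signal of a gene is its reads over the size factor of the library (0.777 to 1.32), as the authors made it, and all values (100%, within 0.01 of a read) were whole reads once multiplied by it. The submitters' processing notes name Trim Galore, TopHat2 2.1.0, SAMtools 1.3.1, HTSeq 0.6.0, DESeq, DESeq2 and hg38, with no order. Identifiers were matched to GENCODE 29, which gave a symbol for 25032 of 25431 genes in 769-P and 23881 of 24190 in CAKI-1.

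The test was limma 3.58.1 (R 4.3.3, trend) on log2(value + 1), a scale that understates changes of low genes, for genes with a mean of at least 1, within each line, and as the interaction term over 8 libraries, with Benjamini-Hochberg adjustment over all genes tested. DESeq2 1.42.0 and edgeR 4.0.16 on recovered reads, other pseudocounts, filters and scalings, thinning to 30979773 reads and leaving out each library were alternatives. Tests were tried on simulated data first. Genes named from the lists were those called in both lines and, beyond these, the 2 with the largest called change in each line, and a few genes of the lists are not reported here. The members and lists were chosen with earlier results of these data known.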

Additional observations from a re-analysis of the deposited data

Results flagged for a closer look

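The interaction test of limma over the 8 libraries compared the BCAA effect between the lines, as a log2 difference of 769-P minus CAKI-1. The effect differed for 4 of the 8 enzymes tested in both lines, against 21.1% of all genes tested. The difference was -1.94 for GPT2, -0.77 for GOT1, 0.45 for GOT2 and 0.25 for GLUD1, and 0.29 for GLUD2, whose transcript is 96.8% identical to that of GLUD1 over 2488 aligned bases. The values of GPT2, GOT1 and GOT2 held their call with every library left out in turn and under every other processing tried, and that of GLUD1 did not.

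Among the glutamine-using enzymes of the lists, the difference was -1.86 for ASNS, -1.14 for GFPT1, -0.95 for GFPT2, -0.57 for CAD, 0.43 for GMPS and 0.26 for PPAT. In the list of other aminotransferases it was -2.69 for BCAT1, -1.98 for PSAT1, -0.64 for PHYKPL and 0.60 for KYAT3. It was -1.19 for ODC1 and 1.24 for GAMT. Among the carriers it was -2.07 for SLC7A11, -1.41 for SLC1A5, -1.24 for SLC7A1, -0.48 for SLC25A15 and 0.86 for SLC7A2. The calls of GFPT2 and PPAT were each lost in 6 of the 8 fits that left out a library, where GFPT2 ran from -1.36 to -0.54 and PPAT from 0.23 to 0.30, and that of SLC7A2 in 2 of 8 (0.64 to 1.07). In 769-P, depth went with the condition, and its part in these differences was not tested beyond the thinned reads.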

How the results depend on the processing

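In 769-P the falls of GOT1, GPT2 and ASS1 and the rises of GOT2 and OAT kept their call under every alternative, leaving out any library included. GLUD1 and ARG2 did not. In CAKI-1 no rise was called with a library left out, where a lone library is taken to vary like the others: the members called higher then numbered 0, the pathway genes 0 higher and 0 lower and all genes 0 higher and 0 lower, though 4235 to 5687 genes, and GOT2, GPT2 and OAT among them, had an unadjusted p under 0.05. The cause was not tested.

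Left-out libraries in 769-P gave 6 to 8 pathway genes higher, and 1493 to 2211 genes higher and 1354 to 1510 lower over all genes. limma without trend called 5 pathway genes higher in 769-P, 2001 genes higher and 1657 lower; 0 members, 0 pathway genes in either direction and 0 genes in either direction in CAKI-1, where 4796 genes had an unadjusted p under 0.05; and 15 pathway genes and 1607 genes with a difference between lines. Quantile normalization called 0 members, 9 pathway genes and 1417 genes higher in CAKI-1. At an adjusted p of 0.01, 7 pathway genes and 1417 genes were higher and 1012 lower in CAKI-1, and 2379 genes differed between lines. With the spread from all 8 libraries, 1 member, ASS1, was lower in CAKI-1. The cause of these shifts was not tested.

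Signs turned only where no call was made. The ASL difference between lines was 0.012 in edgeR without a filter and ran from -0.10 to 0.068 with a library left out, and the GLUL effect ran from -0.021 to 0.27. In CAKI-1, GFPT2 was -0.019 with quantile normalization and -0.0045 with thinned reads (left-out libraries -0.17 to 0.20), GAMT was 0.024 with thinned reads (-0.10 to 0.033), ODC1 was -0.014 with quantile normalization and -0.000186 in edgeR without a filter (-0.019 to 0.041), and SLC7A11 ran from -0.27 to 0.085.

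Levels per kilobase of the longest transcript instead of merged exons, with BCAA, were in 769-P 4.26 for GLUL, 177 for GLUD1, 108 for GOT1, 247 for GOT2, 25.6 for GPT2, 35.6 for ASS1, 20.2 for ASL, 69.6 for OAT and 0.719 for ARG2, and in CAKI-1 145 for GLUD1, 59.8 for GOT1, 156 for GOT2, 53.4 for GPT2, 27.2 for ASL and 164 for OAT, so that OAT stood first there.

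Same-numbered libraries did not deviate together (correlation of deviations -0.088 in 769-P and 0.061 in CAKI-1). The labels do not say whether the numbers pair them, and so few libraries cannot settle it. With the replicate number as a block, as many members were called in each line and direction as without it. The GLUD1 difference between the lines, called without the block, was lost (limma adjusted p = 0.055).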

Other observations

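Further genes of the lists that passed the test but were left out by the naming rule, given here after their values were seen, fell or rose in 769-P with BCAA. Part of these 769-P calls were lost with a library left out, and this was not followed gene by gene. BCAT2, the mitochondrial aminotransferase of the BCAA, had 893 and 827 normalized reads with BCAA and 1366 and 1470 without, a log2 fold change of -0.72 (limma adjusted p = 1.04e-05). PYCR1, the last enzyme of mitochondrial proline synthesis, had 2717 and 2473 with BCAA and 5402 and 5185 without (-1.03, limma adjusted p = 4.82e-08). The glutamine carriers SLC38A1 and SLC38A2 had log2 fold changes of -0.65 and -0.38 (limma adjusted p = 6.11e-08 and 1.19e-05). None of these 4 passed the test in CAKI-1, at 0.17, 0.07, -0.01 and -0.01. The difference between the lines was -0.90 for BCAT2, -1.10 for PYCR1, -0.65 for SLC38A1 and -0.37 for SLC38A2, with limma adjusted p between 5.04e-07 and 0.000896. GPT, the cytosolic alanine aminotransferase, fell by 0.99 from 74.5 and 74.6 normalized reads to 36.4 and 37.6 (limma adjusted p = 0.0139) and the arginine and lysine carrier SLC25A29 by 0.30 (limma adjusted p = 0.0258).

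CTPS2, a second CTP synthase, rose in 769-P by 0.40 (limma adjusted p = 0.000415), and SLC25A11, the 2-oxoglutarate carrier of the malate-aspartate shuttle, had 2286 and 2263 normalized reads with BCAA and 1724 and 1624 without (0.44, limma adjusted p = 8.82e-05). ABAT, which breaks down GABA, rose by 0.66 from low values (limma adjusted p = 0.0418). In CAKI-1 only the mitochondrial glutamate carrier SLC25A22 was called among the genes the rule left out, with 1735 and 1729 normalized reads with BCAA and 1331 and 1300 without (0.40, limma adjusted p = 0.00209, lost with any 1 library left out). Its difference between the lines was -0.49, and those of CTPS2 and SLC25A11 were 0.51 and 0.42 (limma adjusted p between 0.00223 and 0.00512).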
